A study of Mus musculus with 19 samples.

Results

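The genes described here are 10 chemokine ligands measured in sciatic nerve from mice of the strain DBA/2J, namely Cxcl1, Cxcl2, Cxcl5, Cxcl9, Cxcl10, Cxcl12, Cxcl13, Cxcl14, Cxcl16 and Cx3cl1. They were taken from a list of names, 10 of the 18193 genes with a named probe set, and 9 of them were among the 13460 genes whose mean signal lay above the filter on low values. Cxcl5 lay below it. All but Cx3cl1 belong to the CXC family. Cx3cl1 is the CX3C chemokine fractalkine and stands on the list as a relative. Affymetrix arrays had been run on sciatic nerve RNA of 5 diabetic mice given rosiglitazone (DR), 5 diabetic mice given vehicle (DV), 5 control mice given rosiglitazone (CR) and 4 control mice given vehicle (CV), 1 mouse per array. Diabetes had been induced with streptozotocin (STZ), a toxin of the pancreatic beta cell. Rosiglitazone activates PPAR gamma, a nuclear receptor. All 4 groups were the same inbred strain, and the control groups received no streptozotocin. The labels name diabetes as type 1, and give no age, sex or dose. Per the series' design text, another vehicle control array had failed quality measures and was excluded there.

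Chemokines are small secreted proteins that guide cells through G protein-coupled receptors. Cxcl1, Cxcl2 and Cxcl5 act on Cxcr2 and draw neutrophils, while Cxcl9 and Cxcl10 are induced by interferons and draw T cells through Cxcr3. Cxcl12 and Cxcl13 are made by stromal cells without injury, act on Cxcr4 and Cxcr5, and position stem cells and lymphocytes. Cxcl16 and Cx3cl1 are made as membrane-bound proteins that are also shed, and act on Cxcr6 and Cx3cr1. In peripheral nerve, chemokines are known for recruiting leukocytes after injury and for acting on sensory neurons.

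Upstream sequence is shown first for the genes whose levels are set beside each other below, the neutrophil attractants Cxcl1 and Cxcl2, the interferon-induced Cxcl9 and Cxcl10, and Cxcl13. Each window is the 250 bases before the start given in the RefSeq promoter table, on the gene's own strand in build GRCm38.p6. The windows lie at chr5:90890995-90891244 (+), chr5:90903649-90903898 (+), chr5:92328080-92328329 (-), chr5:92348890-92349139 (-) and chr5:95956689-95956938 (+). Capitals mark matches to the NF-kB consensus (NF-kB is a transcription factor of inflammatory signalling) and to the core of the interferon-stimulated response element (ISRE), here GAAA, any 2 bases and GAAA, both searched on both strands.
Cxcl1: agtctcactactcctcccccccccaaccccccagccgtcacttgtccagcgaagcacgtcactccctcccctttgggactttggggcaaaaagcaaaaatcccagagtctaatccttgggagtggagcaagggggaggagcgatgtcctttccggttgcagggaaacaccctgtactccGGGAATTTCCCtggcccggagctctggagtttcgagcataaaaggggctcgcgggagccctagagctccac
Cxcl2: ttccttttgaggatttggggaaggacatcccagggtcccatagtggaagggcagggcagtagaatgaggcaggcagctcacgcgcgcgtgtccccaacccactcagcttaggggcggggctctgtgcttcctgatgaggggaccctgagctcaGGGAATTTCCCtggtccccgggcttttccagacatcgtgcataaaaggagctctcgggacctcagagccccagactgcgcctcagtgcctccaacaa
Cxcl9: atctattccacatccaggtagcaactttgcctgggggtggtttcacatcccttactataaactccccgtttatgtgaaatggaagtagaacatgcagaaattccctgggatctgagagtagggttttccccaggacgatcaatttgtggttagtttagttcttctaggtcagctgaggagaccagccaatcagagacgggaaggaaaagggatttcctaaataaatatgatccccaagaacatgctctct
Cxcl10: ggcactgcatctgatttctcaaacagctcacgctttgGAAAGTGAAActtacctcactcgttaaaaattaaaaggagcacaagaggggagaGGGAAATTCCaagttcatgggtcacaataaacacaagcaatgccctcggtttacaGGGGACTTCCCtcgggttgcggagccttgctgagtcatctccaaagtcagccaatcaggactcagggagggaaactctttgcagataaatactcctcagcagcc
Cxcl13: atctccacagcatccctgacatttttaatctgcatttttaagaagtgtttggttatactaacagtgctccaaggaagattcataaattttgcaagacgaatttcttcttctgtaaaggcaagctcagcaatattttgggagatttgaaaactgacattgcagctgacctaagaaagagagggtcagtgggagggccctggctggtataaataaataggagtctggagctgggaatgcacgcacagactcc
Cxcl1 and Cxcl2 hold the same letters, GGGAATTTCC, at -71 to -62 and at -97 to -88 before the start, and a second match to the consensus overlaps each of them by all but 1 base. These letters occur in 28 of 32851 promoter windows of the same length, 0.0852%. The NF-kB consensus is found in 7.25% of those windows. In Cxcl10 it is present from -159 to -150 and from -104 to -95, where the site nearer the start has an overlapping match. The ISRE core is found in 2.98% of all windows, and lies at -213 to -204 in Cxcl10. In the windows of Cxcl9 and Cxcl13 neither motif was found. The TATA box letters TATAAA, present in 12.4% of all windows, lie at -46 to -41 in Cxcl13 and at -195 to -190 in Cxcl9. A match describes letters only, and the arrays hold no measure of binding.

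Values below are log2 intensities of 1 probe set per gene, the one with the highest mean over the 19 arrays. Levels of different genes are not set against each other, because probe sets differ in how strongly they bind. The arrays differed in transcripts of other cells. The mean level of 12 measured of 14 sensory neuron markers was between -3.59 and -2.91 in 5 arrays (DR716, DV706, DV707, DV709 and CR715) and between 0.08 and 2.01 in the other 14. The Gapdh 3' minus 5' difference, a measure of RNA integrity, was 3.71 in DV706, 4.38 in DV707, 1.75 in DR716 and 1.00 to 1.37 in the rest. Their part in the results was not tested, and values without some or all of these arrays are given for some of the results. In whole tissue, fewer cells of a type and less RNA per cell cannot be told apart. The myelin genes of the labelled tissue were read in all 19 arrays, with Mbp between 13.83 and 14.44 and Pmp22 between 13.82 and 14.34. These genes cannot tell nerve alone from nerve taken with sensory ganglion. Markers of satellite glia, the glia of ganglia, were between -2.82 and -1.95 in the same 5 arrays and between 0.14 and 1.22 in the other 14. Whether ganglion was present in those 14 samples was not tested.

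**Figure D1:**
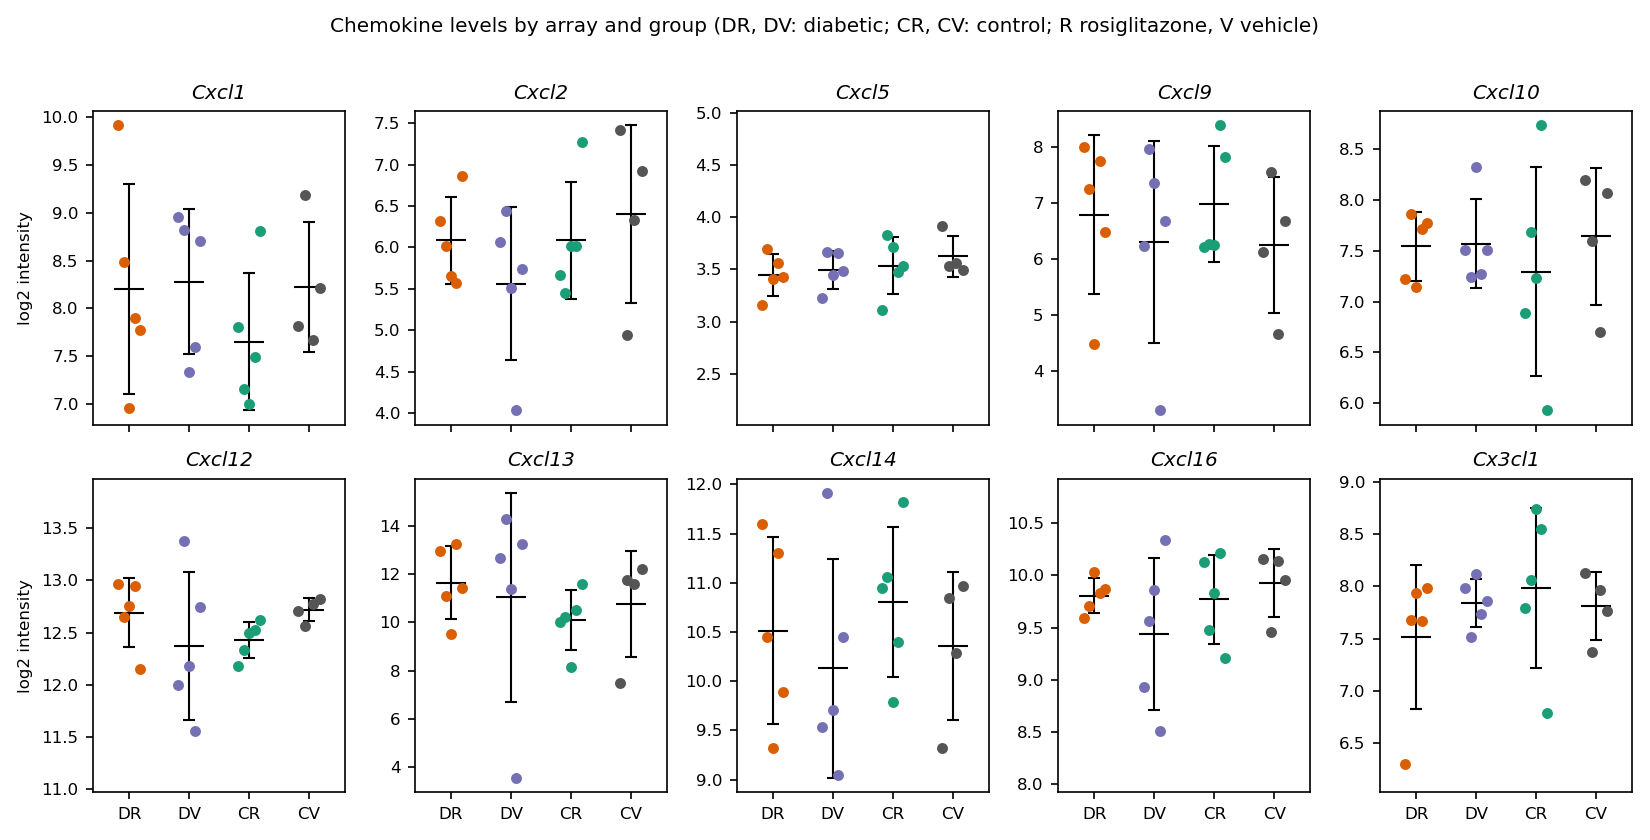
Log2 intensity of the 10 chemokine genes in each array (points), by group from left to right DR, DV, CR and CV, with the group mean and SD (bars). The groups overlap for every gene, and the single DV point at 3.55 for Cxcl13 lies furthest from its group.

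Among the neutrophil attractants, Cxcl1 and Cxcl2 were measured above the filter and Cxcl5 was not. Cxcl1 encodes the mouse chemokine KC. Its values were 9.91, 8.49, 6.97, 7.90 and 7.77 in DR mice and 8.95, 8.82, 7.34, 7.60 and 8.70 in DV mice. They were 7.80, 7.16, 7.003, 7.50 and 8.81 in CR mice and 7.82, 9.18, 7.68 and 8.21 in CV mice. The highest value fell in DR716, and the lowest, in DR718, came from the same group. The mean was 8.21 ± 1.09 in DR mice, 8.28 ± 0.75 in DV mice, 7.65 ± 0.72 in CR mice and 8.22 ± 0.68 in CV mice (SD, n = 5, 5, 5 and 4). The difference with rosiglitazone in control mice was -0.57 (95% interval -1.69 to 0.55, limma adjusted p = 1). Without CV703 it was -0.25, and without CR715 it was -0.86.

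Cxcl2, the chemokine MIP-2, had values of 6.07, 6.44, 5.51, 4.03 and 5.74 in DV mice and 7.42, 4.95, 6.33 and 6.92 in CV mice. DV709 was the lowest of the 19 arrays at 4.03, and CV702 the highest at 7.42. With diabetes under vehicle the difference was -0.84 (95% interval -1.93 to 0.24), to 5.56 ± 0.92 in DV mice against 6.40 ± 1.07 in CV mice, and the test gave limma adjusted p = 0.365. No other of the 9 genes had a smaller p in that comparison. The values were 6.32, 6.01, 5.66, 5.57 and 6.86 in DR mice and 5.67, 5.45, 6.01, 6.01 and 7.27 in CR mice, so the means of these 2 groups were equal to 2 decimals, at 6.08 each. Leaving out CV703, the lowest of its group, moved the difference under vehicle to -1.33, and leaving out DV709 moved it to -0.46. Cxcl5, the chemokine LIX, ran from 3.11 to 3.91 over all arrays, below the filter value of 5.54 in each of them.

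The interferon-induced pair showed a wide spread and no ordering of the groups. Cxcl9 had values of 7.99, 7.25, 4.49, 7.75 and 6.47 in DR mice and 6.22, 7.95, 7.35, 3.30 and 6.67 in DV mice. It had 6.22, 6.27, 6.24, 8.38 and 7.81 in CR mice and 6.12, 7.55, 4.66 and 6.68 in CV mice. Each group held arrays above 7.5 and arrays below 6.3, and in DV709 the value was 3.30. The greatest of its differences between groups was with rosiglitazone in control mice, 0.73 (95% interval -1.14 to 2.60, limma adjusted p = 1). It was 0.20 without CV704 and 1.16 without CV703.

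Cxcl10, the chemokine IP-10, read 7.22, 7.87, 7.14, 7.72 and 7.77 in DR mice and 7.51, 7.24, 8.32, 7.27 and 7.51 in DV mice. Control mice read 6.89, 7.69, 7.24, 8.73 and 5.93 with rosiglitazone and 8.20, 7.59, 6.70 and 8.07 with vehicle. CR mice held both the highest and the lowest value of the 19 arrays, in CR714 and CR715. The difference with diabetes under vehicle was -0.07 (95% interval -0.98 to 0.84, limma adjusted p = 0.936). Its sign was not stable, at -0.38 without CV704, 0.11 without CV702 and 0.28 with the 5 neuron-poor arrays left out.

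Of the stromal chemokines, Cxcl12 (SDF-1) varied least among the 9 genes and Cxcl13 (BLC) most. Cxcl12 had values of 12.96, 12.65, 12.75, 12.95 and 12.15 in DR mice and 11.997, 13.38, 12.18, 11.56 and 12.74 in DV mice. It had 12.18, 12.34, 12.50, 12.52 and 12.62 in CR mice and 12.71, 12.57, 12.78 and 12.82 in CV mice. The 5 DV values spread on both sides of all CV values, with a SD of 0.70 in DV mice against 0.11 in CV mice. The mean difference was -0.35 (95% interval -0.91 to 0.22) with diabetes under vehicle (limma adjusted p = 0.465). With rosiglitazone in diabetic mice it was 0.32 (95% interval -0.21 to 0.85, limma adjusted p = 0.592), a comparison that shares the DV arrays with the one before. The interaction, the rosiglitazone effect in diabetic mice minus that in control mice, was 0.61 (95% interval -0.17 to 1.38), with limma adjusted p = 0.748. Without DV707, the highest DV array, these 3 differences were -0.60, 0.57 and 0.86, and without DV709, the lowest, they were -0.14, 0.12 and 0.40.

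A second Cxcl12 probe set, the next in mean signal, did not follow the one used. Over the 19 arrays their Pearson correlation was 0.05, given as a description. Its values were 9.90, 9.51, 9.31, 9.79 and 9.57 in DR mice and 10.94, 11.25, 8.95, 10.37 and 9.71 in DV mice. They were 9.55, 9.91, 9.34, 9.14 and 9.86 in CR mice and 9.55, 9.94, 9.41 and 9.42 in CV mice. The 2 highest arrays of this probe set were DV707 and DV706, which had the highest Gapdh 3' minus 5' differences. Next came DV709 at 10.37, with a Gapdh difference of 1.24. All of these arrays were low in sensory neuron transcripts, and the part of either trait was not tested. The difference with diabetes under vehicle was 0.66 with this probe set and -0.35 with the one used, and with rosiglitazone in diabetic mice -0.63 and 0.32. The sign of both Cxcl12 differences therefore depended on the probe set. With the mean of all Cxcl12 probe sets the interaction changed sign as well, to -0.03. No direction is given for these differences or for the interaction. For Cxcl13, Cxcl16 and Cxcl1 the other probe sets followed the one used, with correlations of 0.98, 0.97 and 0.94 to 0.97. The other 2 Cxcl1 probe sets gave differences of -0.08 and -0.28 with diabetes under vehicle, against 0.06 with the one used. With rosiglitazone in control mice they gave -0.78 and -0.95, against -0.57. The second Cxcl9 probe set, whose mean lay below the filter value, correlated at 0.54, and the 3 other Cx3cl1 probe sets at 0.87, -0.22 and 0.52. The last 2 of these Cx3cl1 probe sets had means of 3.66 and 3.03, also below the filter value. The second Cxcl14 probe set correlated at 0.87 and gave the opposite sign with diabetes under vehicle, at 0.30 against -0.23, and with rosiglitazone in diabetic mice, at -0.13 against 0.38.

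**Figure D2:**
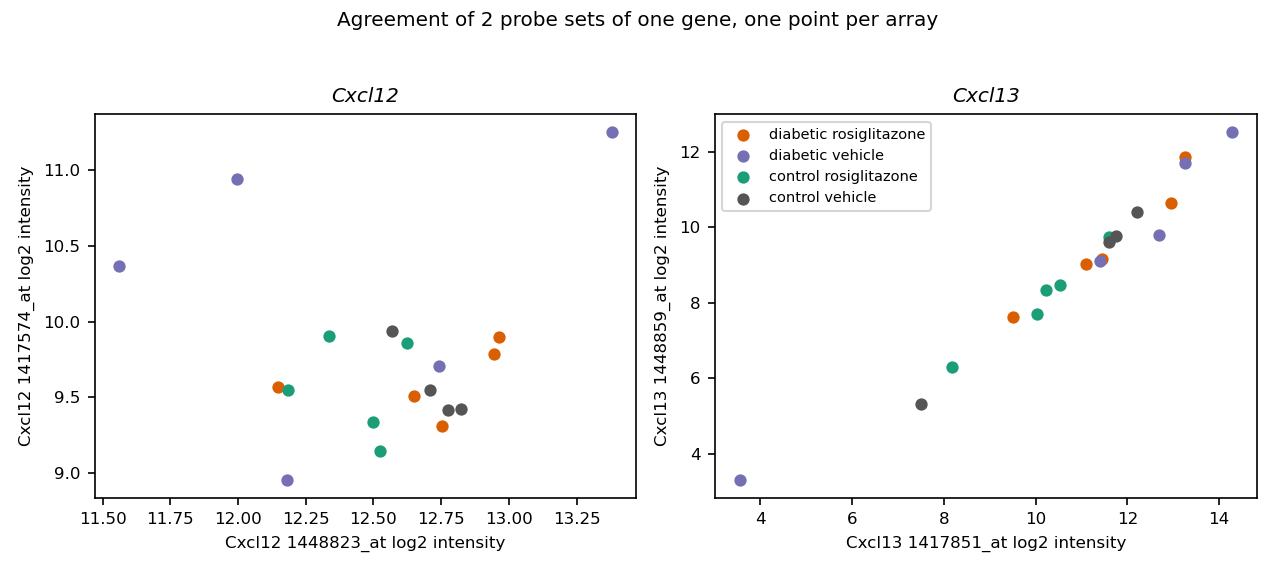
Log2 intensity of a second probe set (y axis) against the probe set used (x axis) for Cxcl12 (left) and Cxcl13 (right), 1 point per array, coloured by group. The correlation over 19 arrays is 0.05 for Cxcl12 and 0.98 for Cxcl13.

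Cxcl13, the attractant of B cells, had values of 12.95, 11.11, 9.51, 13.25 and 11.44 in DR mice and 12.68, 14.29, 11.40, 3.55 and 13.27 in DV mice. It had 10.02, 10.23, 8.17, 10.53 and 11.60 in CR mice and 7.50, 11.76, 11.60 and 12.21 in CV mice. DV709 at 3.55 and CV702 at 7.50 lay apart from the other arrays of their groups, and DV mice held both the lowest and the highest value of the study. The mean was 11.04 ± 4.31 in DV mice against 10.77 ± 2.19 in CV mice, a difference of 0.27 (95% interval -3.23 to 3.77), and limma adjusted p = 0.937. Without DV709 the difference was 2.14, and without CV702 it was -0.82. With rosiglitazone in diabetic mice it was 0.62, and -1.26 without DV709. Between DR and CR mice, groups that hold neither array, the difference was 1.54 (95% interval -1.76 to 4.84), with means of 11.65 ± 1.52 in DR mice and 10.11 ± 1.25 in CR mice (limma adjusted p = 1). It ranged from 1.06 to 2.08 when arrays were left out in turn.

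Cxcl14, a chemokine made in skin and other epithelia whose receptor is debated, had values of 11.59, 10.45, 9.32, 11.30 and 9.89 in DR mice and 9.53, 11.91, 9.71, 9.05 and 10.45 in DV mice. It had 10.95, 11.06, 9.79, 10.40 and 11.82 in CR mice and 9.32, 10.85, 10.28 and 10.97 in CV mice. DV mice held the highest array, DV707, and the lowest, DV709. The difference with rosiglitazone was 0.38 (95% interval -0.77 to 1.53) in diabetic mice (limma adjusted p = 0.761), and it was 0.11 without DV709 and 0.83 without DV707. In control mice it was 0.45 (95% interval -0.78 to 1.67, limma adjusted p = 1), and it was 0.10 without CV702 and 0.70 without CR713.

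Of the membrane-bound chemokines, Cxcl16, which also acts as a scavenger receptor, had values of 9.59, 9.71, 10.03, 9.83 and 9.87 in DR mice and 8.93, 9.57, 9.86, 8.51 and 10.34 in DV mice. It had 10.13, 9.48, 9.83, 10.21 and 9.21 in CR mice and 10.16, 9.46, 10.14 and 9.96 in CV mice. DR mice lay close together, from 9.59 to 10.03, and DV mice were spread from 8.51 to 10.34. The mean of DV mice was 9.44 ± 0.73 against 9.93 ± 0.33 in CV mice, a difference of -0.49 (95% interval -1.12 to 0.15, limma adjusted p = 0.367). Without DV710, the highest DV array, it was -0.71, without DV709, the lowest, it was -0.25, and with the 5 neuron-poor arrays left out it was 0.17. In those 5 arrays Cxcl16 ran from 8.51 to 9.59, with a median of 9.21, against 9.46 to 10.34 and a median of 9.91 in the other 14.

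Cx3cl1, a ligand found on neurons and endothelium, had values of 6.30, 7.68, 7.93, 7.67 and 7.98 in DR mice and 7.98, 7.52, 8.12, 7.74 and 7.86 in DV mice. It had 7.80, 8.06, 8.74, 8.55 and 6.79 in CR mice and 8.13, 7.38, 7.97 and 7.77 in CV mice. The lowest of the 19 arrays were DR716 and CR715, both low in sensory neuron transcripts. DV706, DV707 and DV709, also low in those transcripts, read 7.98, 7.52 and 7.74 for Cx3cl1. The greatest of its differences was with diabetes under rosiglitazone, -0.47 (95% interval -1.19 to 0.24), with 7.51 ± 0.69 in DR mice against 7.99 ± 0.77 in CR mice (limma adjusted p = 1). Without CR715 it was -0.77, and without DR716 it was -0.17.

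Read across the comparisons, none of the 9 genes passed an adjusted p of 0.05 with limma in any of them, and 0 of 45 differences had an unadjusted p under 0.05. Over all 13460 genes tested, 0% passed at the adjusted threshold in each comparison. The share at an unadjusted p under 0.05 was 18.1% with diabetes under vehicle, 9.7% with rosiglitazone in diabetic mice, 2.83% with rosiglitazone in control mice, 1.29% with diabetes under rosiglitazone and 4.77% for the interaction. The groups overlapped for all 9 genes in each of the 4 two-group comparisons. Over all genes tested, the groups did not overlap for 5.06% with diabetes under vehicle, 0.632% with rosiglitazone in diabetic mice, 3.45% with rosiglitazone in control mice and 0.401% with diabetes under rosiglitazone. The 95% intervals reached 0.53 to 3.50 log2 to either side of the estimate in these 4 comparisons. Differences smaller than that could not be resolved for the gene concerned, and the tests do not show that the levels were equal.

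With diabetes under vehicle, 4 of the 9 genes were higher and 5 lower, and their median difference was -0.07 against 0.03 over all genes tested. With rosiglitazone in diabetic mice 6 were higher and 3 lower, with a median of 0.36 against -0.02. In control mice 3 were higher and 6 lower with rosiglitazone, with a median of -0.29 against 0.00. Diabetes under rosiglitazone gave 5 higher and 4 lower, and a median of 0.03 against 0.01. For the interaction 6 were positive and 3 negative, with a median of 0.49 against -0.02. Since the first 2 comparisons share the DV arrays, and DV709 was the lowest of all arrays for 6 of the 9 genes, their medians are not independent. All these counts and medians hold for the probe sets used. Other probe sets of Cxcl12 and Cxcl14 gave the opposite sign in the first 2 comparisons. Those of Cxcl1 did so in the first, and 1 of them in the second.

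**Figure D3:**
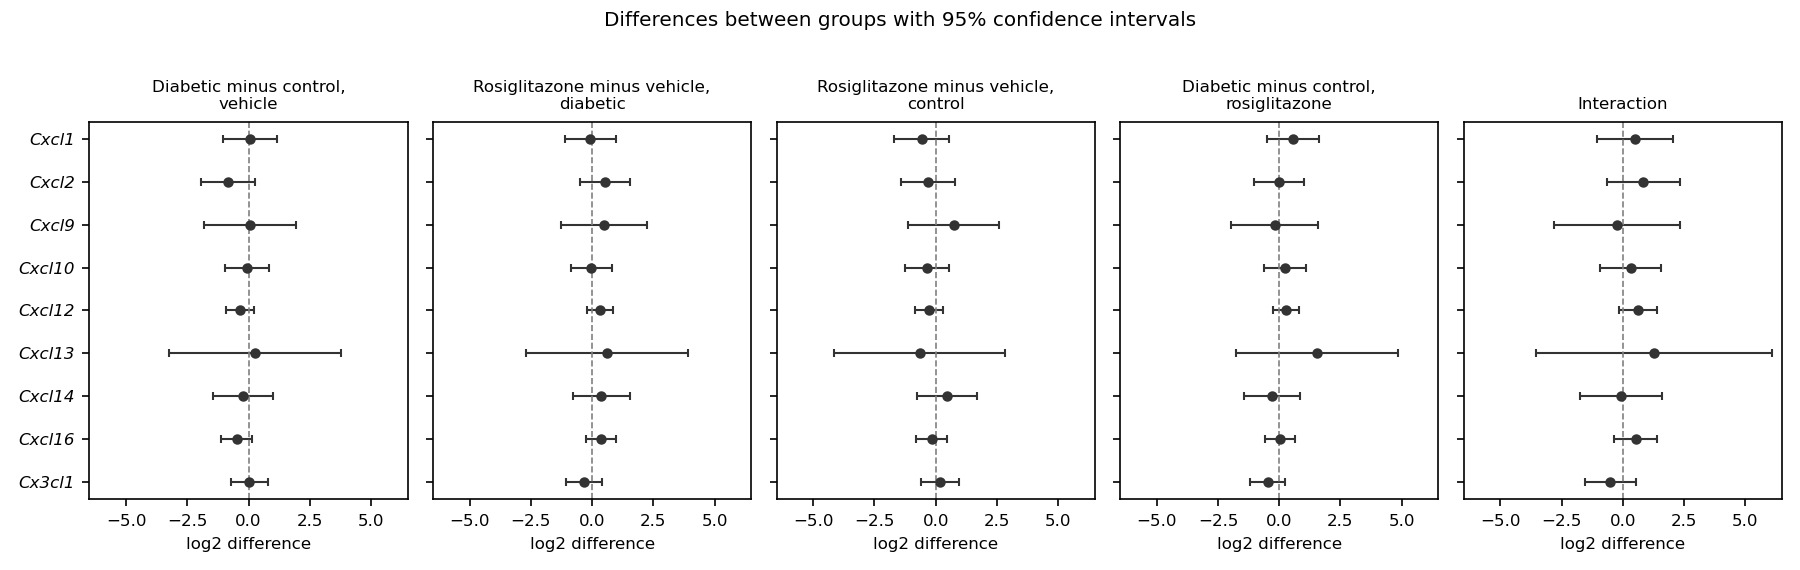
Log2 difference (points) with the 95% interval of the limma model (bars) for 9 chemokines in 5 comparisons, diabetic minus control or rosiglitazone minus vehicle, with the interaction at the right. Every interval includes 0, and those of Cxcl13 are the widest.

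The spread between mice of 1 group was wide. For Cxcl13 the SD within groups was 2.64 log2, above 99.8% of the genes tested, and it was 1.41 for Cxcl9 (96.8%) and 0.92 for Cxcl14 (92.2%). For Cxcl1 and Cxcl2 it was 0.84 and 0.81, and for Cxcl10, Cx3cl1, Cxcl16 and Cxcl12 it was 0.68, 0.56, 0.47 and 0.41. The median of all genes tested was 0.32. The 4 groups accounted for 4.5 to 15.7% of the variance of the 9 genes, where the median over all genes tested was 19%. These shares are not adjusted for the fit of 4 means to 19 arrays, which takes up some variance even where groups do not differ. The rest of the variance lay between mice within groups.

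Receptors were taken from a list of 11, of which 10 were measured and 7 lay above the filter. None of the 7 passed an adjusted p of 0.05 in any comparison. Cx3cr1, the fractalkine receptor of macrophages and microglia, read 6.35, 5.998, 9.02, 7.99 and 9.10 in DV mice and 9.51, 8.91, 9.33 and 9.19 in CV mice. The lowest 3 DV arrays were those low in sensory neuron transcripts, and 2 of them were those with the high Gapdh difference. The mean was 7.69 ± 1.46 in DV mice (SD, n = 5) against 9.24 ± 0.25 in CV mice (SD, n = 4), a difference of -1.54 (SE 0.60, limma adjusted p = 0.241). Without DV706 and DV707 it was -0.53. It was -0.18 without all 3 of the low DV arrays, and likewise with the 5 neuron-poor arrays left out, and over all alternatives the limma adjusted p ran from 0.0688 to 0.966. The part of those arrays in this difference was not tested further. Cxcr2, Cxcr5 and Cxcr6, the receptors of Cxcl1 and Cxcl2, of Cxcl13 and of Cxcl16, lay below the filter. Cxcr3, the receptor of Cxcl9 and Cxcl10, averaged 7.14 ± 0.75 in DR mice against 6.49 ± 1.15 in DV mice (SD, n = 5 each), a difference of 0.65 (limma adjusted p = 0.598). Cxcr4 and Ackr3, both receptors of Cxcl12, differed by -0.30 and 0.00 with diabetes under vehicle.

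Of 6 further CXC ligands, 3 (Cxcl11, Pf4 and Ppbp) lay above the filter, and none of the 3 passed an adjusted p of 0.05. Cxcl11, the third Cxcr3 ligand, averaged 6.06 ± 1.09 in DV mice (SD, n = 5) against 7.02 ± 0.85 in CV mice (SD, n = 4), at a limma adjusted p of 0.417. Among 26 interferon-induced genes tested, 0 passed the adjusted threshold with diabetes under vehicle, while 9 were higher and 0 lower at an unadjusted p under 0.05, beside the 18.1% of all genes in either direction. Oasl1, an interferon-induced antiviral gene, had the smallest p of that list, at 7.16 in DV mice against 5.75 in CV mice, a difference of 1.42 (limma adjusted p = 0.238). Cxcl9 and Cxcl10 differed by 0.05 and -0.07 in the same comparison. Of 19 tested genes induced through NF-kB, 1 was higher and 2 lower at that unadjusted threshold. The 2 lower were Ccl7 and Ccl2, monocyte attractants, and Ccl2 had 9.49 in DV mice against 10.97 in CV mice, a difference of -1.48 (limma adjusted p = 0.238). Of 10 receptors for cytokines that induce chemokines, 0 were higher and 1 lower, Ifngr2 at -0.56, and of 6 tested proteases that cut chemokines 0 were on either side.

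Because the groups explained little, the arrays were compared with each other after centring each gene on its group means. Of 36 pairs among the 9 genes, 11 had a two-sided permutation p under 0.05 after Benjamini-Hochberg adjustment for Pearson's r, 9 of them also for Spearman's rho (19 arrays, 100000 permutations). The permutations moved centred values freely between groups, although the spread differed, as for Cxcl12 with a SD of 0.70 in DV and 0.11 in CV mice. The permutation p-values here and for the marker levels below are therefore approximate and may be too small. When the 5 arrays low in sensory neuron transcripts were left out, 3 of 36 pairs passed over the other 14, and 2 of these 3 were among the 11.

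Cxcl13 and Cxcl14 rose and fell together between mice, with r = 0.74 (permutation p = 0.00012, adjusted p = 0.00216) and rho = 0.78 (permutation p = 0.00023, adjusted p = 0.00828). For this pair r was 0.80 without DV709 and CV702, and r = 0.89 over the 14 arrays (permutation adjusted p = 0.00072). Cxcl9 and Cxcl13 had r = 0.74 (permutation p = 0.00045, adjusted p = 0.0054) and rho = 0.61 (permutation p = 0.00638, adjusted p = 0.0262). That relation rested on DV709, the lowest array of both genes, without which r was 0.52 (permutation adjusted p = 0.0888). Cxcl12 and Cxcl13 had r = 0.64 (permutation p = 0.0065, adjusted p = 0.0288) and rho = 0.57 (permutation p = 0.0117, adjusted p = 0.0421), and r = 0.21 without DV707 and DV709, so this relation too rested on those arrays. Cxcl12 and Cxcl14 had r = 0.68 (permutation p = 0.00102, adjusted p = 0.00678) and rho = 0.63 (permutation p = 0.00505, adjusted p = 0.026). For them r was 0.44 without DV707 and DV709, and r = 0.22 over the 14 arrays (permutation adjusted p = 0.749). All relations of Cxcl12 are those of the probe set used. They were not computed with the second one, which did not follow it.

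Cx3cl1 ran against Cxcl1 and Cxcl14. Between Cxcl1 and Cx3cl1 the values were r = -0.80 (permutation p = 5e-05, adjusted p = 0.0018) and rho = -0.68 (permutation p = 0.00198, adjusted p = 0.0162). This relation had r = -0.62 without DR716 and CR715, and r = -0.67 over the 14 arrays (permutation adjusted p = 0.077). Cxcl14 and Cx3cl1 had r = -0.70 (permutation p = 0.00073, adjusted p = 0.00657) and rho = -0.72 (permutation p = 0.00073, adjusted p = 0.00912), with r = -0.67 without DV707 and DR716 and r = -0.76 over the 14 arrays (permutation adjusted p = 0.0378). Cxcl1 and Cxcl14 had r = 0.68 (permutation p = 0.00113, adjusted p = 0.00678) and rho = 0.72 (permutation p = 0.00076, adjusted p = 0.00912). Here r was 0.59 without DR716 and CR715, and r = 0.62 over the 14 arrays (permutation adjusted p = 0.111). The other 4 of the 11 pairs were Cxcl9 with Cxcl14, Cxcl1 with Cxcl9, Cxcl10 with Cx3cl1 and Cxcl9 with Cxcl12, at r = 0.66, 0.60, 0.57 and 0.56, none of which passed over the 14 arrays.

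The pairs that share a receptor did not pass over the 19 arrays. The neutrophil attractants Cxcl1 and Cxcl2, whose windows share GGGAATTTCC, had r = 0.26 (permutation p = 0.287, adjusted p = 0.356) and rho = 0.41 (permutation p = 0.0849, adjusted p = 0.204). The interferon-induced Cxcl9 and Cxcl10 had r = 0.31 (permutation p = 0.2, adjusted p = 0.304) and rho = 0.31 (permutation p = 0.196, adjusted p = 0.341). For the second of these pairs r was 0.25 without DV709 and DR718, and r = 0.73 over the 14 arrays (permutation adjusted p = 0.0434).

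**Figure D4:**
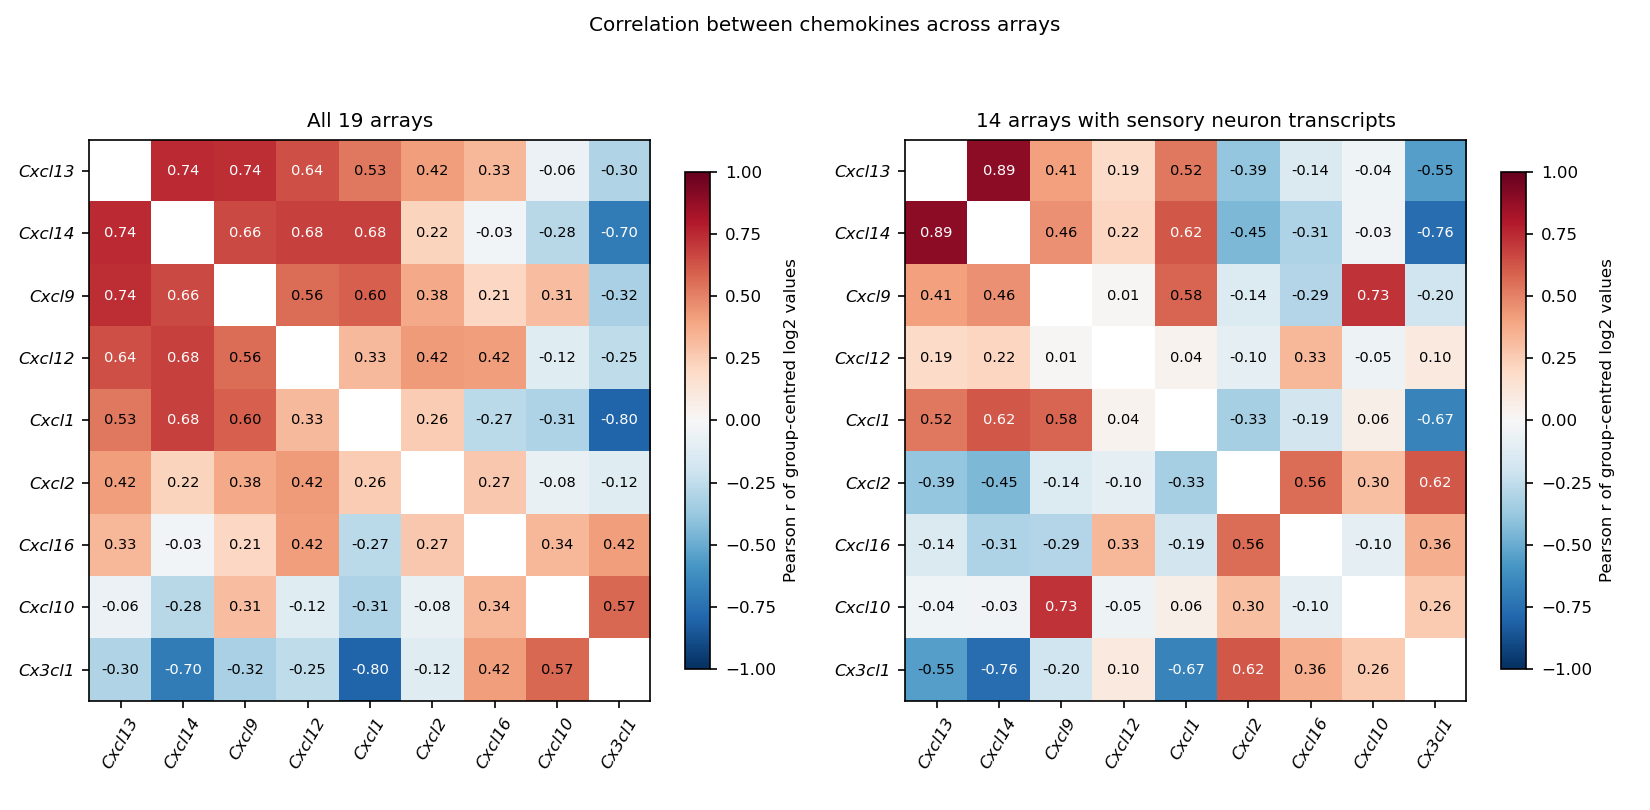
Pearson correlation of group-centred log2 values for each pair of 9 chemokines, over 19 arrays (left) and over the 14 arrays with sensory neuron transcripts (right), coloured from -1 (blue) to 1 (red). Cxcl13 with Cxcl14 is 0.74 at the left and 0.89 at the right, and Cxcl1 with Cx3cl1 is -0.80 and -0.67.

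Marker levels of other cell types moved with the chemokines, and their part in these relations was not tested. A marker level is the mean of a list's genes after each is centred on its mean over the 19 arrays. Of 153 relations of a chemokine with such a level or with the Gapdh 3' minus 5' difference, with group means removed, 33 passed a permutation adjusted p of 0.05, and 0 of the 33 were with the Gapdh difference. On this scale 0 is the mean over the 19 arrays and does not stand for absence of the transcripts.

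Cxcl13 followed the adipocyte markers, 7 of 9 measured, with r = 0.91 (permutation p = 1e-05, adjusted p = 0.00051) and rho = 0.79 (permutation p = 8e-05, adjusted p = 0.00245). The permutation p of 1e-05 is the smallest that the permutations can give. For this relation r was 0.80 without CV702 and DV709, and r was 0.86 over the 14 arrays. The adipocyte level ran from -0.80 to 1.65 in DR mice, -4.16 to 0.59 in DV mice, -0.62 to 2.49 in CR mice and -3.04 to 1.19 in CV mice. DV709 and CV702, the lowest arrays for Cxcl13, were also the lowest for Adipoq, which encodes adiponectin, at 5.48 and 8.04 against 11.16 to 13.80 in the other arrays. With the 8 fibroblast markers Cxcl13 had r = 0.84 (permutation p = 1e-05, adjusted p = 0.00051) and rho = 0.90 (permutation p = 1e-05, adjusted p = 0.00153), and r = 0.82 without DV709 and DV710. The fibroblast level ran from -0.24 to 0.58 in DR mice, -0.87 to 0.28 in DV mice, -0.36 to 0.45 in CR mice and -0.32 to 0.51 in CV mice. Cxcl14 followed the same lists. With adipocyte markers it had r = 0.79 (permutation p = 5e-05, adjusted p = 0.00153) and rho = 0.82 (permutation p = 4e-05, adjusted p = 0.00245), and r = 0.78 without CV702 and DV709. With fibroblast markers it had r = 0.79 (permutation p = 0.0001, adjusted p = 0.00184) and rho = 0.82 (permutation p = 5e-05, adjusted p = 0.00245), and r = 0.81 without DV709 and DV710. Cxcl13 and Cxcl14 also moved with other lists. Cxcl14 had r = 0.77 (permutation p = 9e-05, adjusted p = 0.00184) and rho = 0.74 (permutation p = 0.00049, adjusted p = 0.0065) with the 12 macrophage markers, and r = 0.65 without DV707 and DV709. With the 7 mural cell markers, which are genes of pericytes and smooth muscle, it had r = 0.78 (permutation p = 0.00012, adjusted p = 0.00184) and rho = 0.73 (permutation p = 0.00039, adjusted p = 0.00597), and r = 0.79 without DV708 and CR715. Cxcl13 had r = 0.73 (permutation p = 0.00028, adjusted p = 0.00306) and rho = 0.67 (permutation p = 0.00209, adjusted p = 0.0178) with the macrophage markers, and r = 0.51 without DV707 and DV709. With the mural cell markers it had r = 0.69 (permutation p = 0.00031, adjusted p = 0.00316) and rho = 0.78 (permutation p = 0.0002, adjusted p = 0.00382), and r = 0.80 without DV708 and CR715.

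With the probe set used, Cxcl12 followed the 12 macrophage markers, with r = 0.83 (permutation p = 1e-05, adjusted p = 0.00051) and rho = 0.78 (permutation p = 0.00015, adjusted p = 0.00328). The second Cxcl12 probe set, which did not follow the first, was not compared with marker levels. For the probe set used r was 0.67 without DV707 and DV709, and r was 0.48 over the 14 arrays. The macrophage level ran from -0.24 to 0.51 in DR mice, -0.79 to 0.54 in DV mice, -0.37 to 0.10 in CR mice and 0.04 to 0.28 in CV mice. Cxcl9 followed T cell markers, 7 of 8 measured, with r = 0.68 (permutation p = 0.00147, adjusted p = 0.0132) and rho = 0.70 (permutation p = 0.00134, adjusted p = 0.0128), and r = 0.58 without DV709 and CR714. The T cell level ran from -0.24 to 0.64 in DR mice, -1.02 to 0.56 in DV mice, -0.88 to 1.67 in CR mice and -0.60 to 0.12 in CV mice. With B cell markers, 4 of 5 measured, Cxcl9 had r = 0.66 (permutation p = 0.00254, adjusted p = 0.0205) and rho = 0.71 (permutation p = 0.00126, adjusted p = 0.0128), and r = 0.60 without DV707 and CR714. Of the measured markers, 2 of the B cell list and 5 of the T cell list lay above the filter on low values. Cxcl9 also moved with macrophage, adipocyte and fibroblast markers, at r = 0.66, 0.64 and 0.63 (permutation adjusted p = 0.019, 0.0257 and 0.0257). For these lists rho was 0.54, 0.49 and 0.55 (permutation adjusted p = 0.0761, 0.117 and 0.0711). Over the 14 arrays r was 0.53 with T cell and 0.66 with B cell markers. With the macrophage, adipocyte and fibroblast markers it was 0.25, 0.23 and 0.35.

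Cxcl1 followed the mural cell markers, with r = 0.82 (permutation p = 2e-05, adjusted p = 0.000765) and rho = 0.81 (permutation p = 7e-05, adjusted p = 0.00245), and r = 0.76 without DV708 and CR715. Cx3cl1 ran against them, with r = -0.74 (permutation p = 9e-05, adjusted p = 0.00184) and rho = -0.70 (permutation p = 0.00101, adjusted p = 0.011), and r = -0.68 without DV708 and CR715. The mural level ran from -0.47 to 0.66 in DR mice, -0.70 to 0.76 in DV mice, -0.57 to 1.01 in CR mice and -0.84 to 0.15 in CV mice. Cxcl1 also moved with the fibroblast markers, at r = 0.75 (permutation adjusted p = 0.0028) and rho = 0.78 (permutation adjusted p = 0.00328). With the adipocyte markers Cxcl1 had r = 0.63 (permutation adjusted p = 0.0263) and rho = 0.67 (permutation adjusted p = 0.0179). Cx3cl1 ran against the fibroblast markers, at r = -0.60 (permutation adjusted p = 0.0326), while rho was -0.58 (permutation adjusted p = 0.0554). With the 6 markers of non-myelinating Schwann cells Cx3cl1 had r = 0.79 (permutation p = 0.00011, adjusted p = 0.00184) and rho = 0.63 (permutation p = 0.00452, adjusted p = 0.0309). Here r was 0.54 without CR715 and DR716, and r was 0.37 over the 14 arrays. That level ran from -0.77 to 0.42 in DR mice, -0.81 to 0.73 in DV mice, -1.64 to 0.52 in CR mice and -0.22 to 0.39 in CV mice. Cx3cl1 had a like r with the markers of myelinating Schwann cells, at 0.78 (permutation adjusted p = 0.00306). There rho was 0.51 (permutation adjusted p = 0.1), and r was 0.48 without CR715 and DR716 and 0.29 over the 14 arrays. With the sensory neuron markers, compared over the 14 arrays, Cx3cl1 had r = 0.09 (permutation adjusted p = 0.806).

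**Figure D5:**
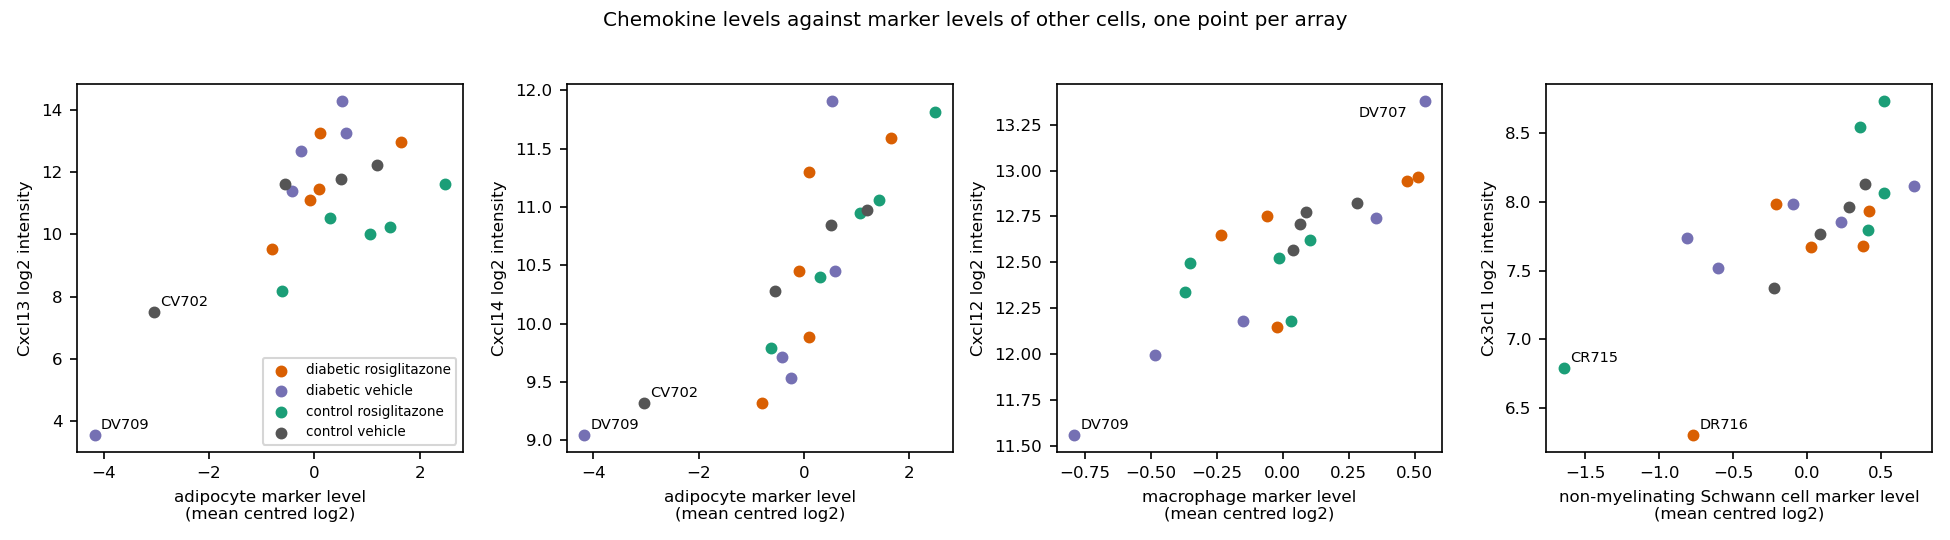
Log2 intensity (y axes) of Cxcl13, Cxcl14, Cxcl12 and Cx3cl1 against the marker level (x axes, mean centred log2) of adipocytes, adipocytes, macrophages and non-myelinating Schwann cells, 1 point per array, coloured by group. DV709 and CV702 are lowest in the adipocyte level and in Cxcl13, at 3.55 and 7.50. Cxcl12 is shown for the probe set used, which the second Cxcl12 probe set did not follow.

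The genes whose group-centred values were most like each chemokine were listed as a description, with no test, since each is the best match among all genes tested. For Cxcl13 these were Dpt, a protein of the dermal matrix, Sfrp4, a secreted Wnt antagonist, and Cyp2e1, a cytochrome P450, at r = 0.98, 0.97 and 0.97 over 19 arrays. For Cxcl14 they were Wfdc21, Chrdl1 and Nrg4, at 0.95, 0.92 and 0.92. Cxcl12, with the probe set used, was most like the leukocyte tetraspanin Cd53, the receptor chain Il13ra1 and the mannose receptor Mrc1, at 0.93, 0.91 and 0.91. Cxcl9 was most like Cxcr3, its own receptor, at 0.84, followed by the class II gene H2-DMb2 and the integrin Itgax at 0.84 and 0.82. Cx3cl1 was most like Lsr, Sccpdh and the desaturase Scd2 at 0.92, 0.92 and 0.91. For Cxcl1 they were Gucy1a1, a guanylate cyclase subunit, Cdon and Clec11a at 0.88, 0.88 and 0.87, and for Cxcl16 Prdm6, the matrix protein Fmod and the glycine transporter Slc6a9 at 0.91, 0.89 and 0.89. The matches of Cxcl2 and Cxcl10 were weaker, led by Ppp1r3c at 0.81 and Hap1 at 0.78.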

How the data were processed

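Sciatic nerve RNA of 19 mice was read on Affymetrix arrays. The deposited values are intensities on a linear scale, 1 per probe set and array. RMA is the tool given, with no version, per the submitters' processing notes. Depth has no meaning for arrays, and their number limits the precision. No offset was added before the log2 of the deposited intensities was taken. Of 45101 probe sets, 64 controls were left out, 34945 had 1 symbol, 932 several and 9160 none. Genes above the 40th percentile of mean log2, 5.54, were tested (13460). A mean per group was estimated in limma 3.58.1 under R 4.3.3 (eBayes, Benjamini-Hochberg over all genes tested, threshold 0.05), and was tested on simulated data. Arrays are named by group and title number, and p-values measure the spread between mice. Cxcl5, below the filter, was not tested. The genes named were the 10 listed, the 2 with the smallest p in each related list (given here in part), and the 3 most alike genes. Members and lists were chosen with earlier results of these data known. Marker relations, and settings without DV706, DV707 and DV709 together or without DV709 in pairs, were added after seeing the data. Promoters of 8 of the 10 genes came from RefSeq GRCm38.p6.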

Additional observations from a re-analysis of the deposited data

Results flagged for a closer look

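In 5 of 40 groups of 1 gene and 1 condition, the highest or lowest array lay apart from the others by Dixon's criterion, which chance meets in about 1 group in 20. Cxcl13 was 3.55 in DV709, where the other DV arrays ran from 11.40 to 14.29. It was 7.50 in CV702, against 11.60 to 12.21 in the other CV arrays, and both arrays were also the lowest in adipocyte markers. Cx3cl1 was 6.30 in DR716, below 7.67 to 7.98 in the other DR arrays. Cxcl10 was 8.32 in DV708, above 7.24 to 7.51 in the other DV arrays. Cxcl5, below the filter on low values, was 3.91 in CV702 and 3.49 to 3.56 in the other CV arrays.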

How the results depend on the processing

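No paired analysis was possible because no replicate number is shared between groups. Under 29 alternative settings, 0 of 1296 values of the 9 tested genes had an adjusted p under 0.05, and 23, from 10 differences, had an unadjusted p under 0.05. A sign change under at least 1 setting was seen for 28 of the 45 differences. The number of the 9 genes with an unadjusted p under 0.05, 0 in each comparison as reported, was 2 with diabetes under vehicle, 1 with rosiglitazone in diabetic mice and 1 for the interaction when the Gapdh difference was a covariate, and the same when DV706 and DV707 were left out. With array weights it was 3 with rosiglitazone in control mice, 1 with diabetes under rosiglitazone and 1 for the interaction, and 20 genes in all passed the adjusted threshold with rosiglitazone in control mice. With the 5 arrays poor in sensory neuron transcripts left out it was 1 with rosiglitazone in control mice and 1 with diabetes under rosiglitazone, and with only the arrays compared 1 with rosiglitazone in control mice. Leaving out arrays in turn gave 0 to 1 of the 9 genes in diabetes under vehicle, rosiglitazone in diabetic mice, diabetes under rosiglitazone and the interaction, and 0 to 4 genes in all at the adjusted threshold with diabetes under vehicle (4 without DV710). The share of all genes tested with an unadjusted p under 0.05 is not given for these settings. The counts of the 9 genes are therefore not read as a result about them. Of the pairs, 11 passed over all arrays. Without the 5 arrays 3 passed, 2 of them among the 11, and without DV709 9 passed, 7 of them among the 11. The cause of these changes was not tested. The number of arrays limits what can be resolved.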
